A study of Homo sapiens with 33 samples.

Results

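The 46 genes analysed encode proteins that choose or use splice sites: 13 SR proteins (SRSF1 to SRSF11, TRA2A and TRA2B), the 4 CLK kinases, 15 hnRNP proteins and 14 other splicing regulators. The genes were taken by name from a count table of 59428 entries and all 46 passed the filter on low counts in each fit. Expression was measured by QuantSeq 3' mRNA sequencing, which reads each mRNA next to its 3' end and so gives a level per gene but not its splice forms. The cells were 2 triple-negative breast cancer lines, spelled here as the labels spell them, MDA-MD-231 and MDA-MD-468. Each line was treated with SY200/V50 (the combination), V50 or SY200 for 3, 6 and 12 h, against a DMSO library and a parental library of the same line at 0 h (22 libraries). MDA-MD-231 cells with CDK7/9 KO, CDK9 KO, CDK7 KO or CDK1 KO were set against empty vector cells, each at 72 and 96 h, in 10 libraries (a parental library sequenced with them was not compared). The series describes the drugs as a CDK7 inhibitor, a CDK9 inhibitor and both, but the kinase hit by each compound name, and the meaning of the numbers in those names, are not given in the labels. The labels also do not say whether the knockout cells were clones or pools, nor whether libraries came from separate cultures. Each line, drug and time, and each genotype and time, has 1 library, so the lines (treatments) or the times (knockouts) serve as the repeats. DMSO and parental libraries of a line serve as repeats of its control. P-values measure only the spread between these. In tests of a difference between the lines, the spread is instead how that difference varies between the times of a drug, and that between DMSO and parental. It includes no spread between lines as repeats.

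SR proteins bind exonic enhancers in pre-mRNA through RNA recognition motifs and recruit spliceosome components through domains rich in arginine and serine. CLK kinases phosphorylate those domains in the nucleus and so release SR proteins to act. hnRNP proteins coat nascent RNA, and many of them repress nearby splice sites, so that SR and hnRNP proteins often oppose each other at an exon. Many genes of both families hold a conserved "poison" exon or intron, whose use sends the mRNA to nonsense-mediated decay and so lets the protein limit its own level. CDK7 is the kinase of TFIIH, and CDK9, in P-TEFb, frees RNA polymerase II from its pause early in a gene. Splicing takes place largely during transcription.

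The promoters of 4 genes on which the results turn are shown because the genes moved in different ways: HNRNPC and HNRNPA2B1, the hnRNP genes with the smallest adjusted p under the combination, SRSF6, the SR gene with the smallest, and CLK4, the CLK gene with the smallest. Each is the 250 bases before the RefSeq start on GRCh38.p14, read 5' to 3' on the strand of the gene. GENCODE release 29 has transcripts that start further upstream, so the stretches of HNRNPA2B1 and CLK4 lie wholly, and that of HNRNPC partly, inside the spans given there. Capitals mark 3 motifs searched on both strands. The first is CCAAT, which reads ATTGG when it lies on the opposite strand. The second is GGGCGG, read there as CCGCCC. The third is TATAAA, read there as TTTATA. HNRNPC is at chr14:21269443-21269692 (minus strand), HNRNPA2B1 at chr7:26200747-26200996 (minus), SRSF6 at chr20:43457646-43457895 (plus) and CLK4 at chr5:178627051-178627300 (minus).
HNRNPC: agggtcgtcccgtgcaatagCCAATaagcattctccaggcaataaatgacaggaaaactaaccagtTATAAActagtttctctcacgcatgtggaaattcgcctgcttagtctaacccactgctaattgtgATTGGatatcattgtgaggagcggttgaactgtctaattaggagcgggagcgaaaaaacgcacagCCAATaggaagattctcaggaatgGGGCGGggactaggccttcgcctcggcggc
HNRNPA2B1: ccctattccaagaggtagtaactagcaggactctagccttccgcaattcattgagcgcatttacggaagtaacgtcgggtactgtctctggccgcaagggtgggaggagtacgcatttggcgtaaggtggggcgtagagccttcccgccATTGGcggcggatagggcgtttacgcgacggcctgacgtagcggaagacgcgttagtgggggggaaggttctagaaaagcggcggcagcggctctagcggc
SRSF6: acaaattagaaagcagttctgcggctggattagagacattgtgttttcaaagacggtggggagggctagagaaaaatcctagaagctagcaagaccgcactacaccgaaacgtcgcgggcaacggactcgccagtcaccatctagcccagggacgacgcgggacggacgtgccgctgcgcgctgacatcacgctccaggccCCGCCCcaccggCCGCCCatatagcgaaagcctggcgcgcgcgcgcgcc
CLK4: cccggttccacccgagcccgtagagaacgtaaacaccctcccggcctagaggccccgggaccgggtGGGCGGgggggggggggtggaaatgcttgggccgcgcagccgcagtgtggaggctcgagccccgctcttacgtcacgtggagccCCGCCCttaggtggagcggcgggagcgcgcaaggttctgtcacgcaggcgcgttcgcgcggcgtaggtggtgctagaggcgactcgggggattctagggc
CCAAT, the letters of the NF-Y box, was found in 9 of 14 hnRNP promoters that could be matched, 2 of 11 SR promoters and 1 of 4 CLK promoters, against 33% of all 27305 RefSeq promoters of that length. GGGCGG, the letters of the SP1 box, was found in 10 of 14 hnRNP, 4 of 11 SR and 3 of 4 CLK promoters, against 42.3% of all. TATAAA was in 2 of 14 hnRNP and 2 of 11 SR promoters, against 11.1% of all. Matches are descriptions of letters and not sites of binding.

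In GENCODE release 29 on GRCh38, SRSF6 spans chr20:43457928-43464247 on the plus strand and its main transcript has 6 coding exons. HNRNPC spans chr14:21209136-21269494 (minus) with 7 coding exons. HNRNPA2B1 spans chr7:26173057-26201529 (minus) with 10. CLK4 spans chr5:178602664-178630615 (minus) with 12. A transcript marked for nonsense-mediated decay was annotated for 13 of 13 SR genes, 3 of 4 CLK genes, 11 of 15 hnRNP genes and 14 of 14 other regulators, against 41.3% of the 13700 tested genes with a coding model.

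The libraries held 16985219 to 22859779 counts each. Median levels of the marker genes of MDA-MD-231 were 274.5 to 657.1 CPM (read counts scaled to the size of the library) in the 22 libraries of that line and 2.18 to 8.0 CPM in the 11 of the other. Those of MDA-MD-468 were 158 to 232.1 CPM in its own libraries and 2.85 to 7.40 CPM in MDA-MD-231, and the summed immune markers were 2.07 to 20.8 CPM. DMSO and parental libraries of a line differed by a median of 0.21 (log2, absolute, over the 46 genes) for MDA-MD-231 and 0.17 for MDA-MD-468, with HNRNPDL the most different gene at 0.77 in MDA-MD-231. The share of counts from mitochondrial mRNAs was 5.05% for MDA-MD-231 and 13.5% for MDA-MD-468 after 12 h of SY200/V50, against 2.18 to 2.51% and 3.88 to 3.93% in their controls, and its part in the results was not tested. CPM and fold changes below are scaled by TMM, which sets the typical gene as unchanged. Scaling each library to its mitochondrial mRNAs instead set the median of all tested genes at a log2 fold change of -1.33 with SY200/V50, -0.92 with V50, -0.44 with SY200, -0.82 in CDK9 KO and -0.81 in CDK7/9 KO, against 0.09, -0.0039, -0.01, -0.0044 and -0.0046 by TMM. "Higher" and "lower" below are thus relative to the typical mRNA of the library. In bulk libraries, fewer cells of a type and less RNA per cell cannot be told apart.

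Under the combination hnRNP genes were mostly higher and SR genes mostly lower by TMM over both lines and all times, while CLK genes differed between the lines. The size of the hnRNP rise differed too, which was not tested for the class. At 12 h the hnRNP median was 0.88 in MDA-MD-231 but 0.11 in MDA-MD-468, where the 2 control libraries were at -0.12 and 0.12. As the mean of 3, 6 and 12 h in both lines, 9 of 15 hnRNP genes rose and 2 fell relative to the typical mRNA, while 5 of 13 SR genes fell and 1 rose, 1 of 4 CLK genes fell, and 5 of 14 other regulators fell and 1 rose (edgeR quasi-likelihood test, BH-adjusted p under 0.05). Among all 18911 genes tested, 24% were called higher and 24.2% lower, so the 9 of 15 hnRNP genes are a larger share than that of all genes that rose, while the 5 of 13 SR genes are nearer to that of all genes that fell. Under mitochondrial scaling the 9 hnRNP genes were lower than in controls, and 15 of 15 hnRNP and 17 of 17 SR and CLK genes were called lower, as were 82.8% of all genes. The medians kept their order there, at -1.09 for hnRNP, -1.68 for SR and -1.80 for CLK genes. By TMM the median log2 fold change was 0.34 for hnRNP genes, -0.26 for SR, -0.38 for CLK and -0.16 for the other regulators, beside 0.09 for all genes. The median of the SR and CLK genes together minus that of the hnRNP genes, which a rescaling of whole libraries hardly moves, was -0.62, and -1.10 at 12 h. The SD between the 2 lines at the same time was 0.53 (variances averaged over the times) and 0.84 at 12 h.

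**Figure D1:**
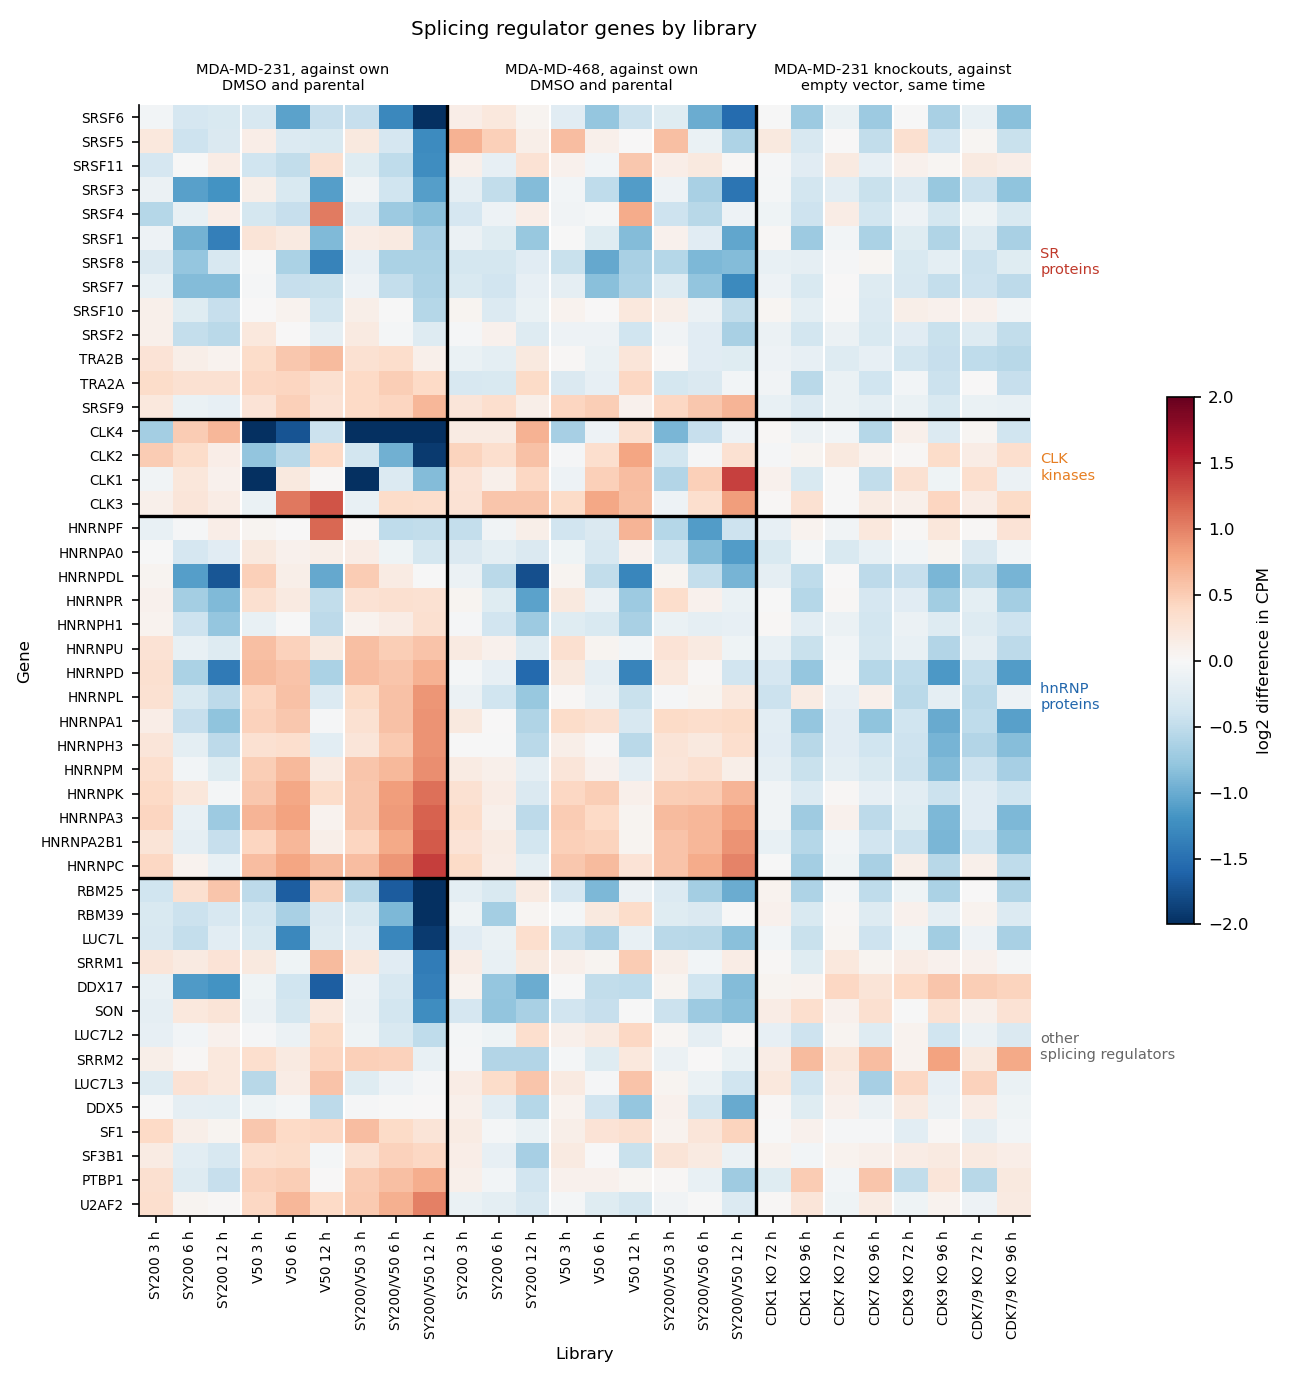
Each cell is the log2 difference in CPM of a gene (rows, by class) in a library (columns) from the mean of DMSO and parental of the same line, or from empty vector at the same time; colours end at -2 and 2 and darker cells may lie beyond. Most hnRNP rows are red and most SR rows blue under SY200/V50 at 12 h in MDA-MD-231, and most rows of both classes are blue in CDK9 KO and CDK7/9 KO at 96 h.

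HNRNPC, which binds uridine tracts and guards against the use of cryptic exons, had 920.4, 1110 and 1561 CPM at 3, 6 and 12 h of SY200/V50 in MDA-MD-231, against 543.1 in DMSO and 665.4 in parental cells. In MDA-MD-468 it had 613.8, 691.3 and 824.1 CPM with the combination, against 379.6 and 447.8. In each line the treated libraries were all above both controls and the highest was that at 12 h. The log2 fold change over the times was 0.86 ± 0.096 (standard error; edgeR adjusted p = 3.02e-06), or -0.57 under mitochondrial scaling.

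HNRNPA2B1, an abundant packaging protein that also sorts RNA, had 1840, 2295 and 3205 CPM with SY200/V50 in MDA-MD-231, against 1250 and 1487 CPM in DMSO and parental cells. In MDA-MD-468 it had 2317, 2463 and 2914 CPM with the combination, against 1482 and 1643. No treated library overlapped a control of either line, and the change was 0.76 ± 0.097 (edgeR adjusted p = 1.04e-05; -0.67 under mitochondrial scaling). HNRNPK, a poly(C)-binding protein, had 1143, 1403 and 1691 CPM against 699 and 892.7 in MDA-MD-231, and 916.8, 921.1 and 1047 CPM against 593 and 712.8 in MDA-MD-468. All 6 treated libraries were above all 4 controls, with a change of 0.68 ± 0.097 (edgeR adjusted p = 2.87e-05; -0.75 under mitochondrial scaling). HNRNPA3, a relative of HNRNPA2B1, had 242, 302.8 and 379.3 CPM against 137.8 and 203.2 in MDA-MD-231, and 260.6, 266.3 and 294.9 CPM against 147.9 and 190.4 in MDA-MD-468. Its treated and control libraries did not overlap either (0.76 ± 0.13, edgeR adjusted p = 0.000152; -0.66 under mitochondrial scaling). Near-identical pseudogene entries of HNRNPA3 summed to 66 to 87.1% of its counts and those of HNRNPA1 to 128 to 199%, so the levels of both are uncertain, while those of HNRNPC (13.6 to 15.7%) and HNRNPK (12.7 to 14.9%) were less exposed. Those of HNRNPL summed to 28.4 to 48.2% of its counts.

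The other hnRNP genes that rose by TMM were HNRNPA1 (log2 fold change 0.48), which represses many splice sites, HNRNPM (0.47), HNRNPH3 (0.41), HNRNPL (0.34), which binds CA repeats, and HNRNPU (0.33), a nuclear scaffold protein. They were at -0.94, -0.96, -1.02, -1.09 and -1.10 under mitochondrial scaling, and HNRNPU was at 0.22 and no longer called without the MDA-MD-231 SY200/V50 library at 12 h. On leaving out 1 library at a time, HNRNPU lost its call in 6 fits and HNRNPL, at 0.25 to 0.41, in 5. HNRNPR (0.20), HNRNPD (0.27), HNRNPH1 (0.01) and HNRNPDL (-0.13) did not pass the test. HNRNPF, which binds G-rich tracts, and HNRNPA0 were the 2 hnRNP genes that fell. HNRNPF had 410.8, 284.7 and 285.4 CPM with the combination in MDA-MD-231, against 361.6 and 450.3 in DMSO and parental cells, and 323.3, 222.4 and 362.1 CPM against 439 and 524.7 in MDA-MD-468. At 3 h in MDA-MD-231 it lay between its controls and in the other 5 libraries below them (-0.51 ± 0.12, edgeR adjusted p = 0.00231). HNRNPA0 changed by -0.43 ± 0.13 (edgeR adjusted p = 0.0132).

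HNRNPF, HNRNPA0 and SRSF8 are the 3 of the 46 genes with 1 coding exon, a grouping chosen after their values were seen, and all 3 fell under the combination. Among all tested genes with 1 coding exon, 57.6% of 824 were lower and 9.71% higher (median log2 fold change -1.10), against 28.2% lower and 24.9% higher of 12876 genes with more (median 0.01). The fall of each of these 3 genes was smaller than that median.

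SRSF6, an SR protein with a pair of RNA recognition motifs, had the smallest adjusted p of all 46 genes. In MDA-MD-231 it had 89.2, 50.3 and 27.9 CPM at 3, 6 and 12 h of SY200/V50, against 120.4 and 125.4 CPM in DMSO and parental cells. In MDA-MD-468 it had 83.6, 50.01 and 34.2 CPM with the combination, against 96.6 and 102 in DMSO and parental cells. All treated libraries were below all controls and each later time was below the earlier one in both lines. The log2 fold change was -1.11 ± 0.11 over the times (edgeR adjusted p = 1.12e-06) and -1.83 ± 0.17 at 12 h, 3.56-fold lower (edgeR adjusted p = 5.29e-07).

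SRSF3, the smallest SR protein and a link to mRNA export, had 348.6, 277.2 and 170.4 CPM with SY200/V50 in MDA-MD-231, against 332.3 and 404.8 in DMSO and parental cells, and 323.5, 222.7 and 126.8 CPM against 372.6 and 325.3 in MDA-MD-468. At 3 h in MDA-MD-231 it lay within its controls, and from 6 h it was below them in both lines (-0.63 ± 0.12 over the times, edgeR adjusted p = 0.000481). SRSF8, a close copy of SRSF2, had 36.3, 26.2 and 26.3 CPM against 41.3 and 40.0 in MDA-MD-231, and 19.7, 15.7 and 15.9 CPM against 26.9 and 31.8 in MDA-MD-468, below its own controls in every treated library (-0.63 ± 0.16, edgeR adjusted p = 0.00461). SRSF7 (-0.59 ± 0.16, edgeR adjusted p = 0.00674) and SRSF4 (-0.48 ± 0.13, edgeR adjusted p = 0.00669) also fell. SRSF9 went the other way by TMM. It had 304.7, 312.7 and 369 CPM with the combination in MDA-MD-231, against 213.2 and 253, and 114.1, 124.8 and 136.5 CPM against 79.3 and 92.2 in MDA-MD-468. Each treated library was above the controls of its line (0.52 ± 0.10, edgeR adjusted p = 0.000644), but the change was -0.91 under mitochondrial scaling. Its last exon overlaps GATC on the opposite strand, and the strand setting of the counting is not given in the sources used here. The other 7 SR genes ranged from -0.27 for SRSF5 to 0.07 for TRA2A and did not pass the test.

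CLK4 had 3.25, 2.33 and 1.001 CPM with SY200/V50 in MDA-MD-231, against 15.1 and 17.0 CPM in DMSO and parental cells. In MDA-MD-468 it had 11.0, 15.0 and 19.2 CPM with the combination, against 21.3 and 20.1. Every treated library was below the controls of its line, but the drop deepened with time in MDA-MD-231 and narrowed in MDA-MD-468 (-1.53 ± 0.43 over both lines, edgeR adjusted p = 0.00699). The line difference of 2.40 ± 0.56 did not pass the test (edgeR adjusted p = 0.0952). CLK1 had 9.01, 31.7 and 21.1 CPM with the combination in MDA-MD-231, against 36.0 and 41.2, and 17.4, 36.5 and 67.4 CPM against 27.2 and 25.1 in MDA-MD-468. It was thus below its controls at 3 h in both lines and above them at 6 and 12 h in MDA-MD-468, and the mean over the times (-0.29 ± 0.30) did not pass. CLK2 had 20.3, 13.4 and 6.85 CPM against 29.02 and 23.7 in MDA-MD-231, and 33.5, 42.2 and 52.9 CPM against 42.1 and 43.8 in MDA-MD-468. CLK2 and CLK3 did not pass either (-0.48 ± 0.25 and 0.28 ± 0.16).

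Of the other regulators, RBM25, an SR-related protein that associates with U1 snRNP, had 107.3, 49.6 and 27.3 CPM with the combination in MDA-MD-231, against 151.7 and 163 in DMSO and parental cells. In MDA-MD-468 it had 83.4, 63.1 and 51.0 CPM, against 93.3 and 109.8. All 6 treated libraries were below the controls of their line (-1.06 ± 0.24, edgeR adjusted p = 0.00172). LUC7L, a human relative of a yeast U1 snRNP protein, had 51.8, 24.2 and 15.9 CPM against 59.6 and 60.7 in MDA-MD-231, and 15.6, 15.4 and 12.7 CPM against 22.6 and 22.8 in MDA-MD-468. It was below its controls throughout (-0.88 ± 0.18, edgeR adjusted p = 0.000705). SON, a scaffold of nuclear speckles, had 300.6, 254.3 and 138.7 CPM against 374.1 and 285.5 in MDA-MD-231, and 337.3, 275.4 and 256 CPM against 444.1 and 469.8 in MDA-MD-468. The 3 h library of MDA-MD-231 lay between its controls and the rest were below them (-0.62 ± 0.16, edgeR adjusted p = 0.00423). DDX17, an RNA helicase, had 147.7, 127.2 and 61.6 CPM with the combination in MDA-MD-231, against 138.9 and 180.5, and 371.5, 270.9 and 196.4 CPM against 395.9 and 325.2 in MDA-MD-468, between its controls at 3 h and below them at 6 and 12 h in both lines (-0.51 ± 0.15, edgeR adjusted p = 0.0106). RBM39 (-0.58), a U2AF2-like protein, fell, with log2 differences from controls of -0.31, -0.91 and -2.06 at 3, 6 and 12 h in MDA-MD-231 but -0.25, -0.28 and -0.015 in MDA-MD-468. Without the MDA-MD-231 library at 12 h it was at -0.37 and did not pass. SF1 (0.34), which binds the branch point, rose by TMM (-1.10 under mitochondrial scaling), but was at 0.19 and did not pass without the MDA-MD-468 library at 12 h. PTBP1 (0.20), U2AF2 (0.30), SF3B1 (0.25), SRRM1 (-0.16), SRRM2 (0.08) and DDX5 (-0.20) did not pass.

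More members passed the test at each later time of the combination. At 3 h, 4 hnRNP genes rose (HNRNPC, HNRNPA2B1, HNRNPK and HNRNPA3) and none of the other 42 genes passed, against 1.88% of all genes higher and 5.66% lower. At 6 h, 6 hnRNP genes rose and 1 fell, 5 SR genes fell and 1 rose, and 2 other regulators fell, against 17.3% and 17.5%. At 12 h, 8 hnRNP genes rose and 2 fell, 9 SR genes fell and 1 rose, 1 CLK gene rose and 5 other regulators fell, against 25.9% and 23.7%. The 12 h medians were 0.55 for hnRNP, -0.55 for SR, -0.08 for CLK and -0.34 for the other regulators (0.09 for all genes), or -1.47, -2.58, -2.12 and -2.35 under mitochondrial scaling, where none of the 46 was called higher. HNRNPC was 2.28-fold higher by TMM at 12 h (1.19 ± 0.12, edgeR adjusted p = 1.64e-06) but at -0.83 under mitochondrial scaling. In the test of 12 h against 3 h, 5 SR genes, 3 other regulators and no hnRNP gene were lower at 12 h, against 8.73% of all genes, and 2 hnRNP and 2 CLK genes were higher by TMM, against 9.57%. SRSF6 (-1.47 ± 0.18, edgeR adjusted p = 0.000161), SRSF5 (-1.33 ± 0.20, edgeR adjusted p = 0.000679), SRSF3 (-1.18 ± 0.20, edgeR adjusted p = 0.00106) and DDX17 (-1.08 ± 0.24, edgeR adjusted p = 0.00547) had the smallest adjusted p among those that were lower. HNRNPC (0.60), HNRNPA2B1 (0.57), CLK1 (1.73) and CLK3 (0.74) were the 4 that were higher, and all but CLK1 were lower at 12 h than at 3 h under mitochondrial scaling. Without the MDA-MD-468 library at 12 h, CLK1 was at 0.49 and CLK3 at 0.36, and neither passed. Leaving out a library moved some of these counts: the 4 genes at 3 h were 1 without DMSO of either line and 0 without the 3 h library of either line, the 15 at 6 h were 6 and 7 without the 6 h library of MDA-MD-231 and MDA-MD-468, and the 12 in 12 h against 3 h were 4 and 6 without their 3 h libraries.

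**Figure D2:**
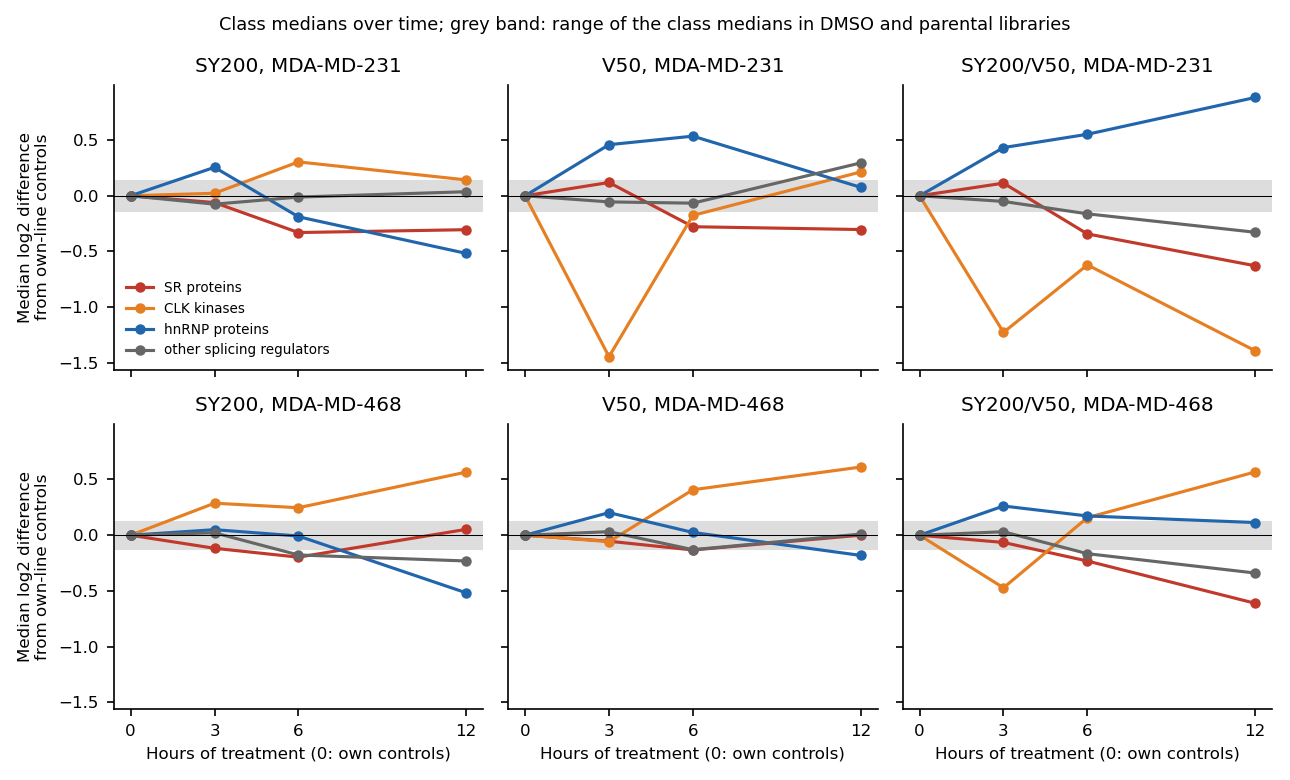
Median log2 difference in CPM of each class from the controls of the same line (y axis) against hours of treatment (x axis), with 1 panel per treatment and line; the grey band is the range of class medians in the control libraries. Under SY200/V50 the hnRNP line rises to 0.88 in MDA-MD-231 and is at 0.11 in MDA-MD-468 at 12 h, while the SR line ends at -0.63 and -0.61. The 0.11 lies within the hnRNP medians of the MDA-MD-468 controls (-0.12 and 0.12).

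The gap between the joint SR and CLK median and the hnRNP median was seen in both lines but differed in size. The SR and CLK median minus the hnRNP median was -0.53, -0.89 and -1.55 at 3, 6 and 12 h of the combination in MDA-MD-231 and -0.37, -0.40 and -0.36 in MDA-MD-468. In the control libraries it was between -0.06 and 0.06. The gap thus widened with time in the MDA-MD-231 values and stayed within 0.04 in those of MDA-MD-468, a difference between lines that was not tested. The CLK median alone was -1.23, -0.62 and -1.39 at 3, 6 and 12 h of the combination in MDA-MD-231, below the hnRNP median each time. In MDA-MD-468 it was -0.47, 0.16 and 0.57, and at 12 h above the hnRNP median of 0.11. All 15 hnRNP genes had a smaller log2 fold change with the combination in MDA-MD-468 than in MDA-MD-231 (median difference -0.33), and all 4 CLK genes a larger one (median 1.27). Of all 18911 genes, 10325 had a smaller and 8586 a larger one (median -0.08). No gene passed the test of the line difference with SY200/V50, V50 or SY200 (0% of all genes in each, edgeR quasi-likelihood test). Of the 46 genes, 14, 3 and 3 had an unadjusted p under 0.05 there, against 3009, 1873 and 1048 of all genes, and DESeq2 called 3, 0 and 0.

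With V50 alone, the mean over the times gave 4 hnRNP genes higher and 1 lower, 1 SR gene higher and 3 lower, 1 CLK gene higher, and 1 other regulator higher and 2 lower, against 10.4% of all genes higher and 11.9% lower. That count of 13 was 7 without DMSO of MDA-MD-468. HNRNPC (0.58 ± 0.095, edgeR adjusted p = 0.000812), HNRNPK (0.44), HNRNPA2B1 (0.36) and HNRNPA3 (0.40) rose by TMM and were at -0.34, -0.48, -0.55 and -0.51 under mitochondrial scaling. On leaving out 1 library at a time, HNRNPA3 ranged from 0.30 to 0.49 and lost its call in 7 fits. HNRNPC had 925.1, 1039 and 931.1 CPM at 3, 6 and 12 h of V50 in MDA-MD-231 and 597.6, 637.9 and 499.1 CPM in MDA-MD-468, above the controls given before in all 6 libraries and highest at 6 h in each line. SRSF6 had 98.1, 58.4 and 89.2 CPM with V50 in MDA-MD-231 and 85, 58.0 and 73.3 CPM in MDA-MD-468, below its controls in all 6 and lowest at 6 h in each line (-0.55 ± 0.11, edgeR adjusted p = 0.0026). SRSF8 (-0.67) and SRSF3 (-0.50) fell, and HNRNPH1 (-0.32), which binds G-rich tracts, was the hnRNP gene that fell. CLK3 had 39.9, 91.5 and 105.7 CPM with V50 in MDA-MD-231, against 42.4 and 45.6 in DMSO and parental cells, and 41.4, 54.2 and 48.2 CPM against 31.9 and 31.4 in MDA-MD-468. It was higher by TMM (0.68 ± 0.16, edgeR adjusted p = 0.00609) and at -0.23 under mitochondrial scaling. CLK1 dropped to 8.91 CPM at 3 h of V50 in MDA-MD-231 and had 44.0 and 39.2 CPM at 6 and 12 h, against controls of 36.0 and 41.2. In MDA-MD-468 it had 24.3, 36.3 and 40.1 CPM with V50, against 27.2 and 25.1.

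By time, V50 gave 3 hnRNP genes higher at 3 h (0.846% of all genes higher, 3.26% lower). At 6 h it gave 4 hnRNP, 1 SR and 1 CLK gene higher and 3 SR genes and 2 other regulators lower (11.9% and 11.5%). At 12 h it gave 2 hnRNP, 1 SR and 1 CLK gene and 1 other regulator higher, and 4 hnRNP genes, 3 SR genes and 2 other regulators lower (8.01% and 7.2%). The hnRNP median at 12 h of V50 was -0.0040, beside 0.55 with the combination. Of these counts, the 3 genes at 3 h were 0 or 1 without most libraries of the inhibitor part, including DMSO of either line. The 11 genes at 6 h were 2 without the MDA-MD-231 V50 6 h library, and the 14 at 12 h were 1 without the MDA-MD-231 and 9 without the MDA-MD-468 V50 12 h library. HNRNPF and SRSF4 reached their highest level at 12 h of V50, a pattern singled out after the values were seen. HNRNPF had 892 and 764.8 CPM then in MDA-MD-231 and MDA-MD-468, against 361.6 and 450.3 in MDA-MD-231 controls and 439 and 524.7 in MDA-MD-468 controls (0.90 ± 0.16, edgeR adjusted p = 0.00206). SRSF4 had 254.1 and 136.9 CPM, against 118.7 and 129 in MDA-MD-231 controls and 75.2 and 89.6 in MDA-MD-468 controls (0.90 ± 0.17, edgeR adjusted p = 0.00324). Under mitochondrial scaling they were at -0.094 and -0.082. In 12 h against 3 h of V50, 1 hnRNP, 1 SR and 1 CLK gene and 1 other regulator were higher (7.97% of all genes), and 5 hnRNP genes, 2 SR genes and 2 other regulators lower (4.84%). HNRNPF (1.08 ± 0.19, edgeR adjusted p = 0.00268) and SRSF4 (1.12 ± 0.21, edgeR adjusted p = 0.00339) led the rises, and SRSF3 (-1.15 ± 0.20, edgeR adjusted p = 0.00225) and HNRNPR (-0.87 ± 0.17, edgeR adjusted p = 0.00421) the falls. That count of 13 was 2 and 4 without the MDA-MD-231 V50 library at 3 and 12 h, and 8 without either of the MDA-MD-468 ones.

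With SY200 alone, the mean over the times gave 3 hnRNP genes, 1 SR gene and 1 other regulator lower and none higher, against 1.02% of all genes lower and 0.968% higher. These were HNRNPDL (-0.87 ± 0.18, edgeR adjusted p = 0.0227), HNRNPR (-0.45), HNRNPH1 (-0.38), SRSF3 (-0.65 ± 0.12, edgeR adjusted p = 0.0167) and DDX17 (-0.71). The count was 0 without the MDA-MD-468 SY200 3 h library 1 without the MDA-MD-231 parental, SY200 3 h or SY200 6 h library, and 2 without DMSO or parental of MDA-MD-468. At 3 h none of the 46 genes passed (0.159% of all genes higher, 0.264% lower), with 5 at an unadjusted p under 0.05 by edgeR and 0 called by DESeq2. At 6 h none passed either (0.206% and 0.0582%), with 9 at an unadjusted p under 0.05 and 3 called by DESeq2. At 12 h, 6 hnRNP genes, 2 SR genes and 1 other regulator were lower and none higher (1.14% of all genes lower, 1.3% higher), a count of 9 that was 0 without the MDA-MD-468 and 1 without the MDA-MD-231 SY200 12 h library. The hnRNP median at 12 h was -0.53, beside -0.13 for SR genes, 0.35 for CLK genes and -0.01 for all genes.

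HNRNPD, also called AUF1, which binds AU-rich elements and speeds mRNA decay, and its paralogue HNRNPDL dropped furthest. HNRNPD had 389, 199 and 115.8 CPM at 3, 6 and 12 h of SY200 in MDA-MD-231, against 245.9 and 391.4 in DMSO and parental cells, and 245, 223.8 and 85.4 CPM against 227.7 and 275.8 in MDA-MD-468. HNRNPDL had 188.9, 84.6 and 55.1 CPM against 138.5 and 236.2 in MDA-MD-231, and 185.7, 138 and 59.4 CPM against 180.3 and 224.6 in MDA-MD-468. Both lay between their controls at 3 h and below them at 12 h in each line (at 12 h -1.52 ± 0.26 with edgeR adjusted p = 0.00768 and -1.77 ± 0.27 with edgeR adjusted p = 0.0039). These are also the 2 genes on which DMSO and parental MDA-MD-231 cells differed most (0.77 for HNRNPDL and 0.67 for HNRNPD, absolute log2). In 12 h against 3 h of SY200, 9 hnRNP genes, 1 SR gene and 2 other regulators were lower (0.968% of all genes) and none higher (0.978%), led by HNRNPR (-1.05 ± 0.17, edgeR adjusted p = 0.0165). That count was 0 without any 1 of the 4 SY200 libraries at 3 or 12 h.

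Levels at 12 h are given side by side for a few hnRNP genes picked after their values were seen, with no test between the drugs at that time. HNRNPD had 504.1 and 192.5 CPM (MDA-MD-231 and MDA-MD-468) with the combination, 199 and 100.4 with V50 and 115.8 and 85.4 with SY200. HNRNPA2B1 had 3205 and 2914 CPM with the combination, 1482 and 1612 with V50 and 989.4 and 1212 with SY200. For both genes the highest value among the drugs was that of the combination in each line. HNRNPF and HNRNPA0 ran the other way: their log2 differences from controls were -0.50 and -0.41, and -0.36 and -1.11, with the combination, and 1.14 and 0.67, and 0.12 and 0.091, with V50. Tested directly over the times, the combination against SY200 had 13 hnRNP genes higher and 1 lower, 1 SR gene higher and 3 lower, 2 CLK genes lower, and 3 other regulators higher and 4 lower, against 23.8% and 22.2% of all genes. HNRNPA2B1 (0.81 ± 0.085, edgeR adjusted p = 2.48e-06) and HNRNPC (0.76 ± 0.084, edgeR adjusted p = 4.35e-06) led the rises and SRSF6 (-1.06 ± 0.10, edgeR adjusted p = 1.21e-06) and RBM25 (-1.10 ± 0.22, edgeR adjusted p = 0.000717) the falls. Under mitochondrial scaling none of the 13 hnRNP genes was called higher and 9 hnRNP genes were lower. Against V50, the combination had 7 hnRNP genes higher and 2 lower, 2 SR genes, 1 CLK gene and 2 other regulators lower, against 7.52% and 12.4% of all genes. HNRNPA2B1 (0.39 ± 0.085, edgeR adjusted p = 0.00442) and HNRNPH3 (0.41 ± 0.094, edgeR adjusted p = 0.00606) led the rises by TMM, and HNRNPF (-0.70 ± 0.11, edgeR adjusted p = 0.000577), SRSF6 (-0.56 ± 0.10, edgeR adjusted p = 0.00147) and SRSF4 (-0.62 ± 0.12, edgeR adjusted p = 0.00213) the falls. Under mitochondrial scaling no hnRNP gene was higher there. That count of 14 was 24 on leaving out SY200/V50 at 12 h of MDA-MD-468, and 6 on leaving out SY200/V50 at 6 h of MDA-MD-231 or, of MDA-MD-468, V50 at 6 h or SY200/V50 at 3 h.

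**Figure D3:**
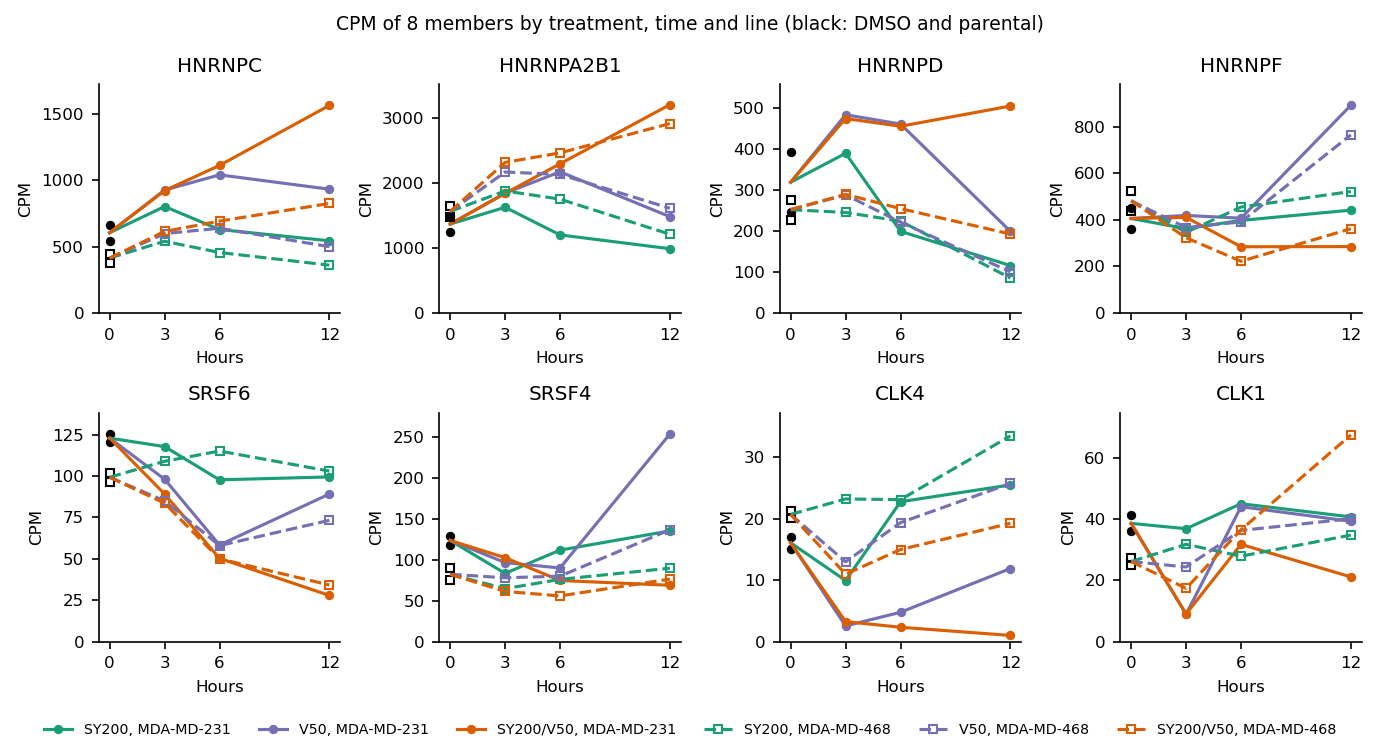
CPM (y axis) against hours (x axis) for 8 genes, with a colour for each treatment, filled marks for MDA-MD-231, open marks for MDA-MD-468 and DMSO and parental in black. HNRNPC and HNRNPA2B1 climb to 1561 and 3205 CPM under SY200/V50 in MDA-MD-231, SRSF6 drops to 27.9 CPM, HNRNPD drops to 115.8 CPM under SY200, and HNRNPF and SRSF4 peak at 892 and 254.1 CPM at 12 h of V50.

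Without drug, MDA-MD-468 and MDA-MD-231 differed in 11 of the 46 genes: 3 SR and 2 hnRNP genes and 3 other regulators were lower in MDA-MD-468 and 3 other regulators higher, against 25% of all genes lower and 28.8% higher. SRSF9 had 79.3 and 92.2 CPM in MDA-MD-468, against 213.2 and 253 CPM in MDA-MD-231 (-1.44 ± 0.15, edgeR adjusted p = 1.68e-06). LUC7L had 22.6 and 22.8 CPM in MDA-MD-468, against 59.6 and 60.7 (-1.40 ± 0.28, edgeR adjusted p = 0.000668). DDX17 had 395.9 and 325.2 CPM in MDA-MD-468, against 138.9 and 180.5 (1.17 ± 0.24, edgeR adjusted p = 0.000775). The lines did not overlap in any of these. HNRNPA1 (-0.78), HNRNPC (-0.55), SRRM1 (1.21) and SF1 (0.48) were also called, and SF1 was at -0.25 under mitochondrial scaling.

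In the knockouts the targeted kinases were lower, which checks the labels. CDK7 had 15.7 and 17.2 CPM in CDK7/9 KO and 15.4 and 13.8 in CDK7 KO, against 49.3 and 66.6 in empty vector cells (72 and 96 h). CDK9 had 34.6 and 36.8 CPM in CDK7/9 KO and 33.4 and 36.5 in CDK9 KO, against 70.9 and 62.2. CDK1 had 82.7 and 85.1 CPM in CDK1 KO, against 179.6 and 283.1. The empty vector library at 96 h stood apart in the 46 genes: 30 were above and 6 below every other library of the knockout part. Its median distance from the others over the 46 genes was 0.37 (log2), against 0.078 to 0.18 for the other 10. Over all genes the distance was 0.29, against 0.27 for the parental library and 0.12 to 0.15 for the rest, so there the parental library was nearly as far out. How many of all genes lay outside every other library was not counted. The mitochondrial share of empty vector at 96 h was 2.60%, against 3.78% at 72 h. As it is 1 of 2 control libraries, the counts, and the fold changes of the genes named, are also given without it.

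In both CDK9-targeted genotypes hnRNP genes and some SR genes fell, and hnRNP medians lay below 0 in the other 2 knockouts too. In CDK7/9 KO, 9 of 15 hnRNP genes and 4 of 13 SR genes fell and 1 other regulator rose, against 5.62% of all 16783 genes lower and 5.72% higher. In CDK9 KO, 8 hnRNP and 3 SR genes fell and 1 other regulator rose, against 3.82% and 4.34%. Without the empty vector library at 96 h, 12 hnRNP and 5 SR genes fell in CDK7/9 KO (7.87% of all genes lower) and 10 and 4 in CDK9 KO (6.49%). The hnRNP medians were then -0.27 and -0.25, against -0.45 and -0.48 with it. Other genes moved as well. LUC7L3 was then at 0.49 and 0.45 in CDK7/9 KO and CDK9 KO (0.14 and 0.10 with it) and CLK1 at 0.32 and 0.32 (0.10 and 0.09). SRSF5 was at 0.07 and 0.25 (-0.22 and -0.04) and PTBP1 at -0.54 and -0.48 (-0.21 and -0.15). With both controls the hnRNP median was -0.24 in CDK7 KO, with 14 of 15 genes below 0, and -0.32 in CDK1 KO, with 15 of 15 below 0. Of all 16783 genes, 8559 and 7917 were below 0 there. Without empty vector at 96 h the hnRNP medians of CDK7 KO and CDK1 KO were -0.055 and -0.16. With and without that library, they were smaller in size than those of the CDK9-targeted genotypes. The difference between genotypes was not tested, so the shift is not shown to be particular to the CDK9-targeted ones. Without empty vector at 72 h, 33 of the 46 genes were called in each CDK9-targeted genotype, beside 22.8% of all genes lower and 19% higher in CDK7/9 KO and 21.3% and 18.5% in CDK9 KO. The 14 genes called in CDK7/9 KO were 0 without either of its own libraries. The 12 called in CDK9 KO were 4 without its 72 h and 0 without its 96 h library, and 6 or 7 without any 1 library of the other knockouts. In CDK7 KO and CDK1 KO none of the 46 passed with both (0.00596% of all genes lower and 0.0179% higher, and 0.0298% and 0.322%), with 16 and 19 at an unadjusted p under 0.05 by edgeR and 1 and 2 called by DESeq2. Without empty vector at 72 h, 33 and 35 were called there, beside 19.6% of all genes lower and 16% higher in CDK7 KO and 21% and 18.8% in CDK1 KO. Without that at 96 h, 2 and 3 were called, beside 0.678% and 0.661%, and 0.998% and 1.39%. At 96 h against 72 h none of the 46 passed (0.0536% of all genes in either direction), with 2 at an unadjusted p under 0.05 and 0 by DESeq2.

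HNRNPD had 203.5 and 189.6 CPM in CDK7/9 KO and 199.3 and 185 in CDK9 KO at 72 and 96 h, against 282.5 and 410.5 in empty vector cells. All 4 knockout libraries were below both controls (-0.81 ± 0.14, edgeR adjusted p = 0.0103, and -0.84 ± 0.14, edgeR adjusted p = 0.0116), and the changes were -0.51 and -0.54 without empty vector at 96 h. CDK7 KO had 274.4 and 276.1 CPM and CDK1 KO 223.6 and 239.4. HNRNPA2B1 had 896.2 and 846.7 CPM in CDK7/9 KO and 872.6 and 792.5 in CDK9 KO, against 1172 and 1496, again without overlap (-0.61 and -0.68). HNRNPH3 had 179 and 193.3 CPM in CDK7/9 KO and 200.8 and 184.4 in CDK9 KO, against 268.8 and 350.4 (-0.73 ± 0.12, edgeR adjusted p = 0.0085, and -0.67 ± 0.12, edgeR adjusted p = 0.0127). HNRNPDL (-0.75 and -0.70) and HNRNPM (-0.54 and -0.64) fell in the same way. Of the SR genes, TRA2B, which promotes exon inclusion through GAA-rich elements, had 147.8 and 146.3 CPM in CDK7/9 KO and 164.2 and 156.3 in CDK9 KO, against 211 and 215.6 (-0.54 ± 0.091, edgeR adjusted p = 0.00925, and -0.41). SRSF3 had 279.6 and 275.7 CPM in CDK7/9 KO and 314.1 and 285.4 in CDK9 KO, against 378.5 and 484.2 (-0.63 and -0.52). With both empty vector libraries, DDX17 was the 1 gene of the 46 that rose by TMM in both genotypes. It had 210.1 and 185.8 CPM in CDK7/9 KO and 197.8 and 200 in CDK9 KO, against 149.9 and 136.7. Under mitochondrial scaling it was at -0.34 and -0.35. Without empty vector at 96 h, the changes in CDK7/9 KO and CDK9 KO were -0.40 and -0.46 for HNRNPA2B1, -0.57 and -0.51 for HNRNPH3, -0.53 and -0.48 for HNRNPDL, -0.41 and -0.51 for HNRNPM, -0.52 and -0.40 for TRA2B, -0.45 and -0.34 for SRSF3 and 0.46 and 0.48 for DDX17, and each still passed the edgeR test. The mitochondrial share was 5.38 and 5.41% in CDK7/9 KO and 5.04 and 5.98% in CDK9 KO, above that of the empty vector libraries, and its part in these results was not tested. The SR and CLK median minus the hnRNP median was 0.23 (SD 0.038 between times) in CDK7/9 KO, 0.24 (SD 0.098) in CDK9 KO, 0.033 (SD 0.0036) in CDK7 KO and 0.15 (SD 0.044) in CDK1 KO. Each SD is between the values at 72 and 96 h against empty vector at the same time, which in CDK7 KO were 0.055 and 0.060. Both lay above the fitted 0.033, so that SD is not an error of the fitted value.

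**Figure D4:**
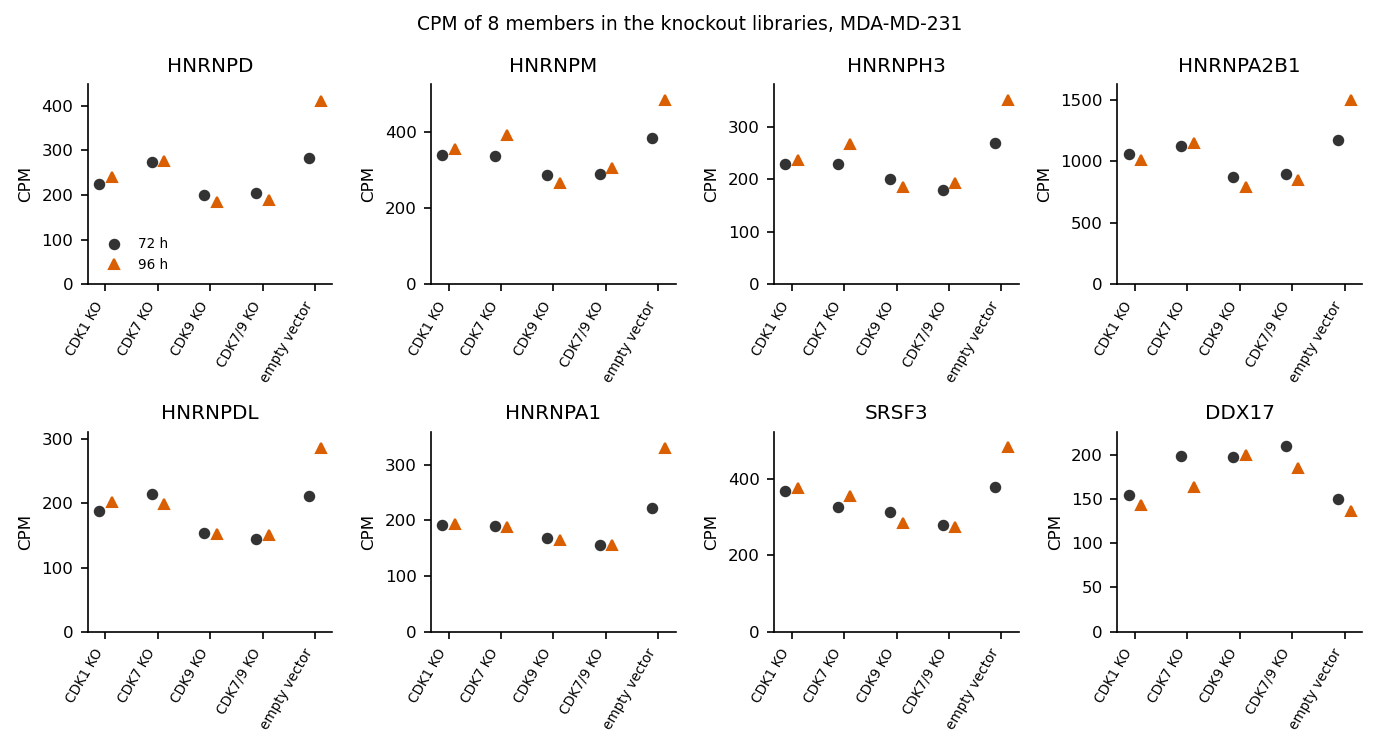
CPM (y axis) of 8 genes in each knockout genotype and in empty vector cells (x axis), with circles for 72 h and triangles for 96 h, 1 library each. For HNRNPD the CDK9 KO and CDK7/9 KO libraries lie at 185 to 203.5 CPM, against 282.5 and 410.5 in empty vector cells, where the 96 h triangle stands above all others.

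The combination and the double knockout, which have separate controls, moved the classes differently. By TMM, 12 of 15 hnRNP genes had a positive log2 fold change at 12 h of SY200/V50 and a negative one in CDK7/9 KO, against 24.8% of the 16158 genes tested in both, and 5 of them passed both tests in these opposite directions, against 1.81%. Under mitochondrial scaling all 15 were lower in both. Of the SR genes, 9 of 13 were negative in both, against 26.2% of those genes, and 3 were called lower in both, against 1.62%. HNRNPA2B1 stood at 1.07 with the drugs and -0.61 in the knockout, and HNRNPA3 at 0.99 and -0.58. Without empty vector at 96 h the knockout values were -0.40 and -0.24. SRSF3 stood at -1.28 and -0.63. The comparison is between 12 h of drug in 2 lines and 72 to 96 h of knockout in 1, so time, line and means of blocking cannot be told apart.

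**Figure D5:**
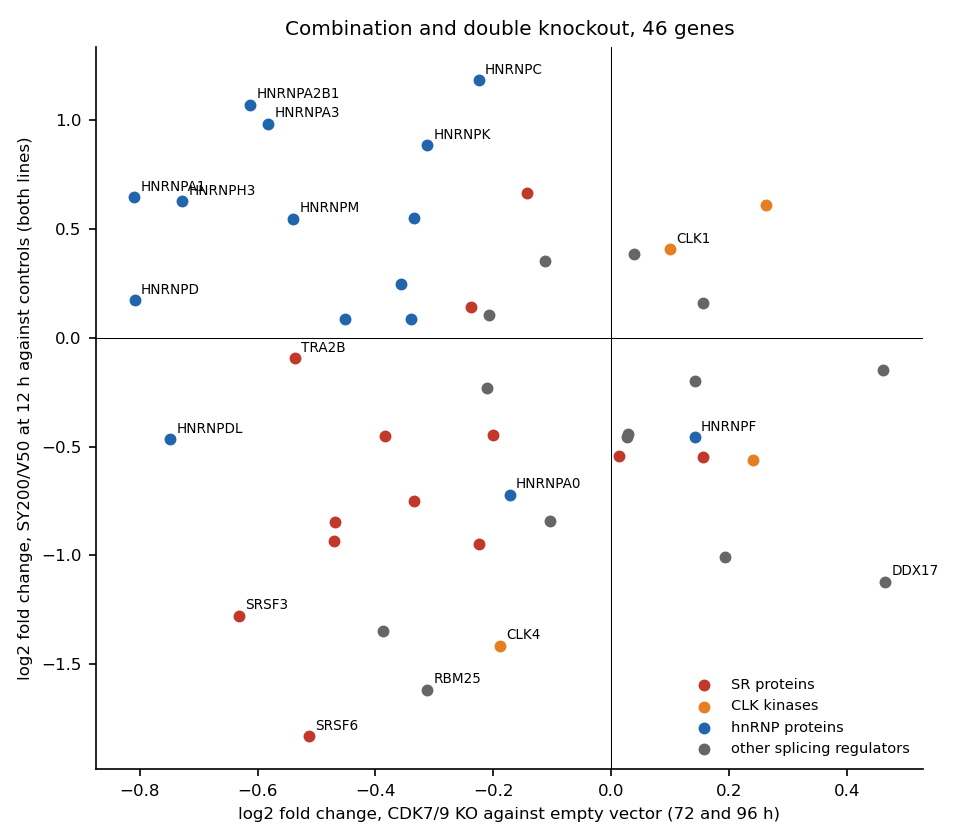
log2 fold change of each of the 46 genes at 12 h of SY200/V50 against controls (y axis) and in CDK7/9 KO against empty vector (x axis), coloured by class. Most hnRNP genes lie in the upper left, at up to 1.19 on the y axis and down to -0.81 on the x axis, and most SR genes in the lower left.

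Genes of the same pathway outside the 46 were counted on lists of fixed membership. With the combination, 6 of 7 tested SRPK, DYRK and PRPF4B kinases, which also phosphorylate splicing factors, fell and none rose, with a median log2 fold change of -1.07 (0.09 for all genes). DYRK3, which dissolves nuclear speckles, was at -2.53 ± 0.22 (edgeR adjusted p = 3.68e-07) and DYRK1A at -2.05 ± 0.20 (edgeR adjusted p = 1.11e-06). Of 26 tested SR-related proteins, 12 fell and 2 rose (median -0.45), with CWC22, a spliceosome factor that brings in the exon junction complex, at -1.80 ± 0.20 (edgeR adjusted p = 2.67e-06). Of 36 further hnRNP and RNA-binding splicing factors, 9 rose by TMM and 7 fell (median 0.09), among them MATR3 at 0.61 and PTBP3 at -0.61. Of 52 core spliceosome genes, 26 rose by TMM and 11 fell (median 0.26), with the Sm protein genes SNRPD2 (0.89 ± 0.11, edgeR adjusted p = 9.31e-06) and SNRPD3 (0.72) higher and PRPF38B (-1.40 ± 0.19, edgeR adjusted p = 2.04e-05) lower. Nonsense-mediated decay genes had 3 of 15 higher and 2 lower, and cleavage and polyadenylation genes 8 of 22 higher and 7 lower, with CSTF1 at -2.83 ± 0.25 (edgeR adjusted p = 4.29e-07). The background of 24% higher and 24.2% lower holds for these counts too, and rises on them are relative to the typical mRNA.

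With V50 alone, 5 of the 7 kinases fell and none rose, and 16 of 52 core spliceosome genes rose by TMM and 1 fell, against 10.4% of all genes higher and 11.9% lower. Of the SR-related genes 4 rose and 1 fell, led by THRAP3 (0.65) and BCLAF1 (0.60), which are paralogues. With SY200 alone, none of the 52 core spliceosome genes and none of the 7 kinases passed the test (0.968% of all genes higher, 1.02% lower). In CDK7/9 KO no kinase passed, 6 of 52 core spliceosome genes fell and 1 rose, and 6 of 35 further hnRNP and RNA-binding factors fell and 2 rose, against 5.62% of all genes lower and 5.72% higher. RBMX, an hnRNP protein (-0.59 ± 0.10, edgeR adjusted p = 0.00974), was among those that fell.

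Gene models gave few further traits that ran with the combination's effect. Across the 46 genes the Spearman correlation of the log2 fold change with mean log2 CPM was 0.55, and that with the number of coding exons was 0.19, beside 0.15 over 13700 genes with a coding model. With the length of the 3' untranslated region it was -0.13, beside -0.25 over all. With the number of ATTTA stretches in that region it was -0.30, beside -0.24 over all. These correlations are descriptions across genes, which share libraries and are not replicates. The mean log2 CPM was taken over all inhibitor libraries, the treated ones included, so a rise under the drugs itself lifts it. Its correlation over all genes was not computed. Mean control levels were 165 to 1465 CPM in the hnRNP class and 35.0 to 358.8 CPM in the SR class, so class and expression level cannot be fully told apart.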

How the data were processed

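The authors deposited raw read counts, whole numbers for every gene symbol in every library. The submitters' processing notes name FastQC, STAR 2.7.10a and GRCh38. How reads were counted (tool, annotation release, strand, molecular identifiers) is not given in the sources used here, so counts may include repeated copies of 1 molecule.

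Counts were fitted in edgeR 4.0.16 (R 4.3.3): filterByExpr (minimum count 10, total 15), TMM factors, quasi-likelihood F test and Benjamini-Hochberg adjustment over all genes tested at a threshold of 0.05. The inhibitor model had cell line and condition (18911 genes, 11 residual degrees of freedom; control: 4 DMSO and parental libraries), a second one also the interaction of line and treatment (8), and the knockout model time and genotype (16783 genes, 4). DMSO and parental libraries of a line differed beyond counting error (chi-square divided by its degrees of freedom: 40.1 for MDA-MD-231 and 24.9 for MDA-MD-468). CPM are scaled by TMM library sizes, and a standard error is the log2 fold change divided by the square root of F. Tests were checked on simulated counts with no effect of line or time and with balanced changes in a small share of genes. That check does not cover broad shifts in RNA or responses that differ between the lines.

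All 46 genes were open to being named. Values in every library are given mainly for the 4 of each class with the smallest adjusted p in a treatment mean, other comparisons name up to 4 called genes in each direction, and pathway lists up to 3. The members, lists and comparisons were chosen with earlier results of these data known. RefSeq promoters were matched by symbol for 42 of the 46 genes (none for HNRNPA1, RBM39, SRSF2 and TRA2A). SRSF1, SRSF2, SRSF9 and LUC7L2 have a last exon that overlaps another gene annotated in GENCODE, whose reads cannot be told apart from theirs here. The alternatives were DESeq2 1.42.0 (size factors or Wald test), no filter, mitochondrial scaling, DMSO alone, no block, PTBP1 counted as hnRNP, members of at least 10 CPM, and leaving out each library.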

Additional observations from a re-analysis of the deposited data

Results flagged for a closer look

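The response at 12 h differed from that at 3 h of the same drug in several of the 46 genes, by the edgeR test of the difference itself (adjusted p under 0.05). The values are log2 differences, 12 h minus 3 h, over both lines and by TMM.

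With SY200 the level at 12 h was below that at 3 h for HNRNPDL (-1.71), HNRNPD (-1.63), DDX17 (-1.06), HNRNPR (-1.05), HNRNPA3 (-0.9994), SRSF3 (-0.87), HNRNPA1 (-0.86), HNRNPH1 (-0.77), HNRNPL (-0.73), HNRNPA2B1 (-0.67), HNRNPH3 (-0.65) and SF3B1 (-0.64).

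With V50 the level at 12 h was below that at 3 h for HNRNPDL (-1.43), HNRNPD (-1.39), SRSF3 (-1.15), SRSF1 (-1.003), DDX17 (-0.95), HNRNPR (-0.87), HNRNPH3 (-0.58), HNRNPL (-0.58) and SF3B1 (-0.50). It was above that at 3 h for SRSF4 (1.12), HNRNPF (1.08), CLK3 (0.85) and LUC7L3 (0.73). Without the MDA-MD-231 V50 library at 12 h, CLK3 was at 0.39 and DDX17 at -0.52, and without that at 3 h LUC7L3 was at 0.42, and none of these passed the test.

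With SY200/V50 the level at 12 h was below that at 3 h for SRSF6 (-1.47), SRSF5 (-1.33), RBM25 (-1.20), SRSF3 (-1.18), DDX17 (-1.08), LUC7L (-0.99), SRSF1 (-0.96) and SRSF10 (-0.65). It was above that at 3 h for CLK1 (1.73), CLK3 (0.74), HNRNPC (0.60) and HNRNPA2B1 (0.57). Without the MDA-MD-468 SY200/V50 library at 12 h, CLK1 was at 0.49 and CLK3 at 0.36, and without that of MDA-MD-231, RBM25 was at -0.62 and LUC7L at -0.57, and none of these passed. Under mitochondrial scaling CLK3, HNRNPA2B1 and HNRNPC were lower at 12 h than at 3 h of SY200/V50 (-0.45, -0.60 and -0.57).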

How the results depend on the processing

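No paired analysis was possible because every replicate number is 1, so the numbers pair no libraries; the models match libraries by cell line or time instead, and their values without that block are given below. The alternatives for single times, line differences, 96 h against 72 h and the removal of an empty vector library were chosen after seeing the data. The class difference kept its sign in every alternative except CDK7 KO without the empty vector library at 96 h (-0.0013). Mitochondrial scaling and DESeq2 size factors rescale whole libraries, so they could hardly change that sign and do not check it. With all libraries kept, it shifted by more than the spread between repeats in CDK7 KO by mitochondrial scaling (0.046) and by counting PTBP1 as hnRNP (0.027), and in CDK7/9 KO by counting PTBP1 as hnRNP (0.18). Leaving out 1 library shifted it by more than that spread in 4 fits for CDK7 KO, 2 for CDK1 KO and 1 each for CDK9 KO and CDK7/9 KO, and in none for the drugs. For the drugs the spread is the SD between the 2 lines, 0.18 to 0.84, against 0.0036 to 0.098 between times in the knockouts. Dropping a library of 1 line can hardly move a mean of 2 lines by more than their SD. The lack of such shifts for the drugs thus does not show that the value is stable. Leaving out each library gave -0.85 to -0.52 with SY200/V50, -1.38 to -0.74 at its 12 h, -0.37 to -0.12 with V50, 0.042 to 0.26 with SY200, 0.21 to 0.30 in CDK7/9 KO, 0.21 to 0.39 in CDK9 KO, -0.0013 to 0.11 in CDK7 KO and 0.10 to 0.22 in CDK1 KO.

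Mitochondrial scaling gave 46 members called with SY200/V50, 45 with V50 and 28 with SY200, to 32, 46 and 46 at 3, 6 and 12 h of SY200/V50, 28, 40 and 36 of V50, and 2 and 5 at 3 and 6 h of SY200. It gave 43 for SY200/V50 and 2 for SY200 in 12 h against 3 h, 32 for SY200/V50 against V50, 30 between untreated lines, and 44 each in CDK7/9 KO and CDK9 KO. It reversed SRSF4 (-0.082), CLK3 (-0.0042), HNRNPC (-0.54), HNRNPF (-0.094) and LUC7L3 (-0.41) at 12 h of V50, SRSF9 (-0.57), HNRNPA2B1 (-0.55), HNRNPA3 (-0.51), HNRNPC (-0.34), HNRNPK (-0.48), CLK3 (-0.23) and SF1 (-0.58) with V50 over the times, and SRSF9 (-0.91), HNRNPA1 (-0.94), HNRNPA2B1 (-0.67), HNRNPA3 (-0.66), HNRNPC (-0.57), HNRNPH3 (-1.02), HNRNPK (-0.75), HNRNPL (-1.09), HNRNPM (-0.96), HNRNPU (-1.10) and SF1 (-1.10) with SY200/V50. At 12 h of SY200/V50 it reversed SRSF9 (-1.35), CLK3 (-1.42), HNRNPA1 (-1.36), HNRNPA2B1 (-0.94), HNRNPA3 (-1.03), HNRNPC (-0.83), HNRNPH3 (-1.38), HNRNPK (-1.13), HNRNPL (-1.47) and HNRNPM (-1.46), and in 12 h against 3 h CLK3 (-0.45), HNRNPA2B1 (-0.60) and HNRNPC (-0.57). It also reversed SF1 between untreated lines (-0.25) and DDX17 in CDK7/9 KO (-0.34) and CDK9 KO (-0.35).

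Without the block for line, the counts were 6, 0 and 0 for the means of SY200/V50, V50 and SY200, 0, 3 and 11 at 3, 6 and 12 h of SY200/V50, 0, 1 and 0 of V50, 0 at 12 h of SY200, 1, 0 and 0 in 12 h against 3 h, and 9 and 2 for SY200/V50 against SY200 and V50. No filter gave 3 for SY200, 1 at 3 h of V50, 6 in SY200 12 h against 3 h, 7 for SY200/V50 against V50, and 22, 21, 6 and 12 in CDK7/9, CDK9, CDK7 and CDK1 KO. DESeq2 gave 8 and 5 at 3 h of SY200/V50 and V50, 3 at 6 h of SY200, 3 for the line difference of SY200/V50, 1 in CDK7 KO and 2 in CDK1 KO. DMSO alone gave 0 for SY200, 1 at its 12 h and 6 between untreated lines. The cause was not tested.

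Leaving out each library gave 20 to 29 calls with SY200/V50, 7 to 15 with V50 (7 without MDA-MD-468 DMSO) and 0 to 7 with SY200. At 3, 6 and 12 h it gave 0 to 4, 6 to 19 and 21 to 31 with SY200/V50, 0 to 2, 2 to 13 and 1 to 18 with V50, and 0, 0 to 2 and 0 to 11 with SY200. In 12 h against 3 h it gave 4 to 17, 2 to 16 and 0 to 14, and for SY200/V50 21 to 31 against SY200 and 6 to 24 against V50. In the knockouts it gave 0 to 33 in CDK7/9, CDK9 and CDK7 KO and 0 to 35 in CDK1 KO, with the highest value without empty vector at 72 h in each. Depth limits CLK4 most, whose lowest level was 1.001 CPM.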
